A study of Homo sapiens with 2 samples.

Results

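Of 2005 genes with a row in the authors' deposited table, 27 carry a symbol of the ubiquitin system. The symbols are those of ubiquitin ligase, conjugating enzyme, ligase adaptor and deubiquitinase families, and of the ubiquitin-like modifier UBD. All 27 were chosen by the letters of the symbol (such as TRIM, RNF, MARCH, FBXO, KLHL, BTBD, USP or OTUD). The letters were set with earlier results of these data known. The table compares HES2, a long-established human embryonic stem cell line, infected with either scramble lentivirus (the control) or lentivirus with an shRNA against Tfcp2l1, a transcription factor of the CP2 family. The sequence of the hairpin is not given in these labels. The labels name no other alteration, and the cells of both groups spent 3 passages in medium that held 10% KSR and the factors Activin A and FGF2 (10 ng/ml of either). Each group was 1 library, so no difference below has a replicate check and none has a test of the condition. Every row already passed limits of the authors, which are read here from the rows themselves. The smallest size was 1 on the log2 scale and the largest false discovery rate 0.00099. Nothing is said here of a gene without a row.

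Ubiquitin is a small protein that is joined to other proteins through a chain of enzymes. A conjugating enzyme carries the activated ubiquitin, and a ligase chooses the target. RING ligases bring enzyme and target together, HECT ligases take up the ubiquitin themselves, and cullin ligases are assemblies that borrow a separate receptor (an F-box, BTB-kelch or SOCS-box protein) to hold the target. Deubiquitinases remove the tag. Many tagged proteins are broken down by the proteasome, while other tags alter where a protein goes or what it binds.

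The ubiquitin genes were split between the directions. By the direction in the authors' deposited table, 14 of the 27 were higher and 13 lower in the Tfcp2l1 shRNA library (the knockdown library). Over all rows 54.1% were higher and 45.9% lower. With at least 1 library at 1 FPKM or more (reads scaled by gene length and depth), 11 of the 27 were at least 2-fold higher with a pseudocount of 0.1 FPKM, beside 40.8% of all rows. Another 11 were at least 2-fold lower, beside 35.4% of all rows. Both shares are near those of the table as a whole. At least 4-fold higher were 3 of the 27 (KLHL4, MARCH11 and BTBD19), beside 12.0% of all rows, and none was 4-fold lower on this scale, beside 5.34%. The highest level of any member was 23.1 FPKM, and the median of each gene's higher level was 3.92 FPKM, against 3.3 FPKM over all rows.

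**Figure D1:**
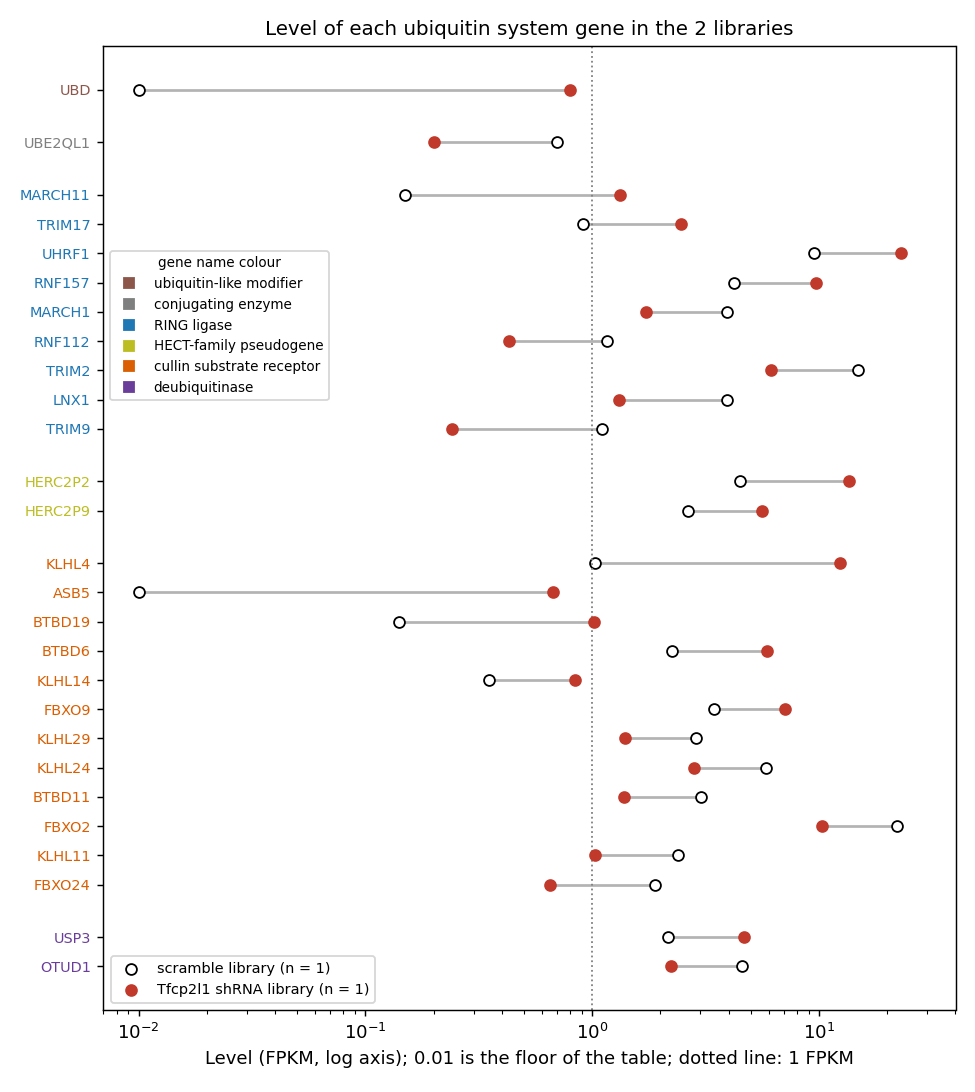
Level of each of the 27 genes in the scramble library (open circles) and the Tfcp2l1 shRNA library (filled circles), in FPKM on a log axis, grouped by role, with 1 library per group. UBD and ASB5 sit at the floor of 0.01 FPKM in the scramble library, and UHRF1 and FBXO2 have the highest levels, 23.1 and 22.0 FPKM.

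The targeted gene, TFCP2L1, stood at 3.19 FPKM in the control and 0.33 FPKM after knockdown. Depth, inferred from the deposited values, was about 23500000 reads in the control and 22700000 after knockdown. Markers of other states differed between the same libraries. All 4 primitive streak markers and all 5 definitive endoderm markers listed were higher (summed levels 3.48 and 413 FPKM, and 7.36 and 938 FPKM), with SOX17 at the floor in the scramble library. Of 14 embryonic stem cell markers 6 had a row, SOX2 among them, and all 6 were lower (summed levels 561 and 207 FPKM), while neither POU5F1 nor NANOG had a row. Of 6 fibroblast markers only COL1A1 had a row, at 110 and 24.4 FPKM. The part of these shifts in the levels given below was not tested, and in RNA from a whole culture fewer cells of a type and less RNA per cell cannot be told apart.

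The windows around the start sites of the genes with the highest ratios and of the gene with the lowest are shown because they differ in CpG content. Capitals mark each CG pair. The sequences are those of RefSeq (GRCh38.p14, 250 bases before to 50 after the start, 5′ to 3′), while the authors' notes name hg19, and which start these cells used was not measured.
KLHL4 chrX:87517552-87517851 (+ strand): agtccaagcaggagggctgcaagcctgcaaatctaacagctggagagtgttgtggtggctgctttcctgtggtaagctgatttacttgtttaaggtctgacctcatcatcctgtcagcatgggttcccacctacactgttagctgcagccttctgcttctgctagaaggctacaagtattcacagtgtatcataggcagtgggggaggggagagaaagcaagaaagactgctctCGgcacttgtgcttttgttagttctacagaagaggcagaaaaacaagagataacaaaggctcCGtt
UBD chr6:29559683-29559982 (- strand): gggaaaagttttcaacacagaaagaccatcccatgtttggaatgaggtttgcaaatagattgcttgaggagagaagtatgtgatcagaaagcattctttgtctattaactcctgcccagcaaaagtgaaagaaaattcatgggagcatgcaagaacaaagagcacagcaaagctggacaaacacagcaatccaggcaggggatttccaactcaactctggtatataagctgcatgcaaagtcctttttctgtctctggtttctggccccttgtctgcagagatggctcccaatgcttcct
ASB5 chr4:176269173-176269472 (- strand): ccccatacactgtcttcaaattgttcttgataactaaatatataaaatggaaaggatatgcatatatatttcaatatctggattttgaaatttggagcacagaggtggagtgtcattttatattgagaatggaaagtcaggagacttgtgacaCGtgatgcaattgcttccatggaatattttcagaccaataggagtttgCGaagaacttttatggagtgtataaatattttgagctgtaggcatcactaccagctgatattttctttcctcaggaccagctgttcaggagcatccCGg
MARCH11 chr5:16179742-16180041 (- strand): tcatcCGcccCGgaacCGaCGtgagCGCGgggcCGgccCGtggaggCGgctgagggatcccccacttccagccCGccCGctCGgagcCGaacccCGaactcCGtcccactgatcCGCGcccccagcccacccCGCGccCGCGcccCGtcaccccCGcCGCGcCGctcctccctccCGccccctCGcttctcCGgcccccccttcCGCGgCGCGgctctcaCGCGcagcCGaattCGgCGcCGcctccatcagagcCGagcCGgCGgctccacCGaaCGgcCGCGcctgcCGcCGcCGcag
TRIM9 chr14:51095056-51095355 (- strand): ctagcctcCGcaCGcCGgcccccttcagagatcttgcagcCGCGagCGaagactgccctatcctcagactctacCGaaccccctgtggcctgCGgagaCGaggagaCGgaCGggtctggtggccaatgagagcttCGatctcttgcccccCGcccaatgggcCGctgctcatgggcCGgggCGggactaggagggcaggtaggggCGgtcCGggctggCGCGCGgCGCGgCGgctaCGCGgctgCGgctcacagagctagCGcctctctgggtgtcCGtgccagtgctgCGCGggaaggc
KLHL4, UBD and ASB5 hold 2, 0 and 3 CG pairs, while MARCH11 and TRIM9 hold 49 and 31. The median over all 35116 RefSeq windows of this length is 14. Of the 27 genes 23 had an entry, with 36 windows in all and a median of 19 CG pairs. The windows of the higher members had a median of 32 (14 windows) and those of the lower members 16 (22 windows). A gene with several starts counts more than once here. Among the lower members the windows of TRIM2 hold 7 to 20 CG pairs, and among the higher those of UHRF1 hold 36 to 46. These medians therefore describe windows and do not show that the higher and lower genes differ. Both kinds of promoter occur among the genes with high ratios.

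The same windows were searched on both strands for letters that 4 factors are known to bind. The TFCP2L1 pair CCAGNNNNNNCCAG was in 0 of the 36 windows and in 4.04% of all RefSeq windows. The TCF/LEF letters CTTTGAT (2.62% of all windows) and the T-box letters GGTGTGA (3.45%) were in none of the 36 either. The FOXA letters TGTTTAC were in 1 window each of MARCH1, OTUD1 and TRIM2, and in 3.42% of all windows. A match or its lack describes these letters in these windows and nothing further.

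Among the modifiers and conjugating enzymes, 1 gene was higher and 1 lower. UBD (gene ID 10537) encodes FAT10, a ubiquitin-like protein known to be induced by inflammatory cytokines and to send its targets to the proteasome. In the control it was at the floor of 0.01 FPKM with 0 inferred reads, and after knockdown at 0.80 FPKM with 17 reads. Set against an assumed floor of 3 reads in the control this is 5.86-fold higher, and the 95% interval, which takes the 0 reads, starts at 4.27. In the GENCODE transcripts 65.5% of the 31-base words of UBD also occur in GABBR1, so its reads are uncertain. UBE2QL1 (gene ID 134111), a relative of the conjugating enzymes, stood at 0.70 FPKM in the control and 0.20 FPKM after knockdown. It was 3.42-fold lower on 99 and 28 reads (interval 2.23 to 5.40). Both of these genes were below 1 FPKM in both libraries.

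Intervals here and below are exact (Clopper-Pearson) 95% intervals of the ratio of inferred reads. The ratios and folds printed with them are also those of inferred reads and can differ somewhat from the ratio of the levels. The intervals cover counting error only and say nothing of how cultures vary.

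Of the 9 RING ligases, 4 were higher and 5 lower after knockdown. UHRF1 (gene ID 29128) binds hemimethylated DNA at the replication fork and helps to keep DNA methylation through cell division. It stood at 9.47 FPKM in the control and 23.1 FPKM after knockdown, a ratio of 2.44 (interval 2.26 to 2.65). It had the highest level of all the members, and 32.5% of its 31-base words occur in another gene, 27.9% in AC112777.1, so its level is uncertain. RNF157 (gene ID 114804), a ligase related to MGRN1, stood at 4.24 FPKM and then 9.73 FPKM, a ratio of 2.30 on 482 and 1070 reads (interval 2.06 to 2.56). TRIM17 (gene ID 51127), known from the control of neuronal cell death, was at 0.91 and 2.46 FPKM. Its ratio of 2.66 had an interval from 1.83 to 3.94, which reaches below 2-fold.

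Other TRIM genes went the opposite way to TRIM17. TRIM9 (gene ID 114088), a brain-enriched ligase that acts in axon guidance, had the lowest ratio of all the members. It stood at 1.11 FPKM in the control and 0.24 FPKM after knockdown, 4.53-fold lower on 117 and 25 reads (interval 2.92 to 7.28). TRIM2 (gene ID 23321), a ligase for neurofilament light chain in neurons, was at 14.8 and 6.16 FPKM. This is 2.40-fold lower (interval 2.21 to 2.61). The pair shared a direction at very different levels.

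LNX1 (gene ID 84708) is a ligase for NUMB, an inhibitor of Notch signalling. It stood at 3.92 FPKM in the control and 1.31 FPKM after knockdown, 2.99-fold lower on 288 and 93 reads (interval 2.36 to 3.83). RNF112 (gene ID 7732), which joins a RING to a GTPase domain, was at 1.16 and 0.43 FPKM, 2.71-fold lower (interval 1.78 to 4.23). TRIM9, LNX1 and TRIM2 were the only lower members at 1 FPKM or more with an interval wholly beyond 2-fold, 3 of the 27 beside 21.3% of all rows.

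The MARCH genes encode RING ligases that sit in membranes, and the listed pair had opposite directions. MARCH11 (gene ID 441061) stood at 0.15 FPKM in the control and 1.33 FPKM after knockdown, a ratio of 9.10 on 5 and 44 reads (interval 3.62 to 29.4). MARCH1 (gene ID 55016), known to remove MHC class II from the surface of immune cells, was at 3.92 and 1.72 FPKM, 2.28-fold lower (interval 1.93 to 2.69). The low counts of MARCH11 leave the size of its ratio open over a wide range.

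No coding gene of the HECT families named in the rule (HERC, HECW, NEDD4, SMURF) had a row, but 2 pseudogenes of HERC2 did. HERC2P2 (gene ID 400322) stood at 4.47 FPKM in the control and 13.6 FPKM after knockdown, a ratio of 3.03 (interval 2.79 to 3.30). HERC2P9 (gene ID 440248) was at 2.65 and 5.59 FPKM, a ratio of 2.11 (interval 1.84 to 2.41). As pseudogenes they are not known to make a ligase, and the deposited annotation gives both the label of HERC2. Of the 31-base words of HERC2P2, 78.2% occur in HERC2P9, 58.2% in the pseudogene HERC2P3 and 45.6% in HERC2. Of those of HERC2P9, 66.8% occur in HERC2P3 and 62.8% in HERC2. The longest run shared by the transcripts of HERC2P2, HERC2P9 and HERC2 is 357 bases, and its first 90 bases are shown because short reads from it cannot be assigned to 1 locus.
HERC2P2, HERC2P9 and HERC2 shared run: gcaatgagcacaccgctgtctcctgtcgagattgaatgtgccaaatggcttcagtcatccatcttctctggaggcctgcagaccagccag
Levels of both pseudogenes are therefore uncertain, and they may share reads with each other, with HERC2P3 and with HERC2.

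The 12 genes placed with the cullin receptors by their F-box, BTB or SOCS-box family were divided evenly, 6 higher and 6 lower. KLHL4 (gene ID 56062), a BTB-kelch gene, had the highest ratio of the 12 with the pseudocount of 0.1 FPKM. It stood at 1.03 FPKM in the control and 12.4 FPKM after knockdown, a ratio of 12.0 on about 79 and 917 reads (interval 9.53 to 15.3). By the ratio in the authors' deposited table it ranked 172 from the top of 2005 rows, behind UBD (39) and ASB5 (49). Among members at 1 FPKM or more it was the only one past 8-fold with the pseudocount of 0.1 FPKM, beside 5.69% of all rows. By its reads, which take no pseudocount, MARCH11 was past 8-fold as well. None of the 31-base words of KLHL4 occur in another gene.

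The other 4 listed KLHL genes had smaller ratios. KLHL14 (gene ID 57565) was at 0.35 and 0.84 FPKM, higher in the knockdown library but below 1 FPKM in both. KLHL24 (gene ID 54800), a receptor that acts in keratin turnover, was at 5.84 and 2.80 FPKM, 2.08-fold lower (interval 1.87 to 2.33). KLHL11 (gene ID 55175) was at 2.40 and 1.03 FPKM and KLHL29 (gene ID 114818) at 2.86 and 1.39 FPKM. The intervals of the 3 lower genes all reach inside 2-fold.

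The BTB domain genes outside the kelch group included 2 that were higher. BTBD19 (gene ID 149478) stood at 0.14 FPKM in the control and 1.02 FPKM after knockdown, a ratio of 7.24 on 5 and 35 reads (interval 2.82 to 23.7). BTBD6 (gene ID 90135), known as a cullin adaptor in neuronal differentiation, was at 2.25 and 5.92 FPKM, a ratio of 2.56 (interval 2.05 to 3.21). BTBD11 (gene ID 121551) was lower, at 3.01 and 1.38 FPKM, 2.18-fold lower (interval 1.78 to 2.68).

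Among F-box genes, FBXO2 (gene ID 26232), which recognises sugar chains on misfolded glycoproteins, was the most abundant member in the scramble library. It stood at 22.0 FPKM there and 10.3 FPKM after knockdown, 2.14-fold lower on 855 and 387 reads (interval 1.89 to 2.42). FBXO24 (gene ID 26261) was at 1.89 and 0.65 FPKM. By its 87 and 31 reads it was 2.71-fold lower (interval 1.78 to 4.23). The authors' log2 ratio of its levels, -1.54, is somewhat larger in size. FBXO9 (gene ID 26268), a receptor that acts on regulators of mTOR, was higher at 3.46 and 7.05 FPKM, a ratio of 2.04 (interval 1.80 to 2.31). No FBXL or FBXW gene and no cullin gene had a row.

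ASB5 (gene ID 140458), a SOCS-box gene known from skeletal muscle, was at the floor in the control with 0 reads and reached 0.67 FPKM after knockdown with 45 reads. Taking an assumed floor of 3 reads for the control, this is 15.5-fold higher, and the interval, which takes the 0 reads, starts at 12.1. With UBD it makes 2 of the 27 genes at the control floor, beside 3.79% of all rows. Its level in the knockdown library was still below 1 FPKM.

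**Figure D2:**
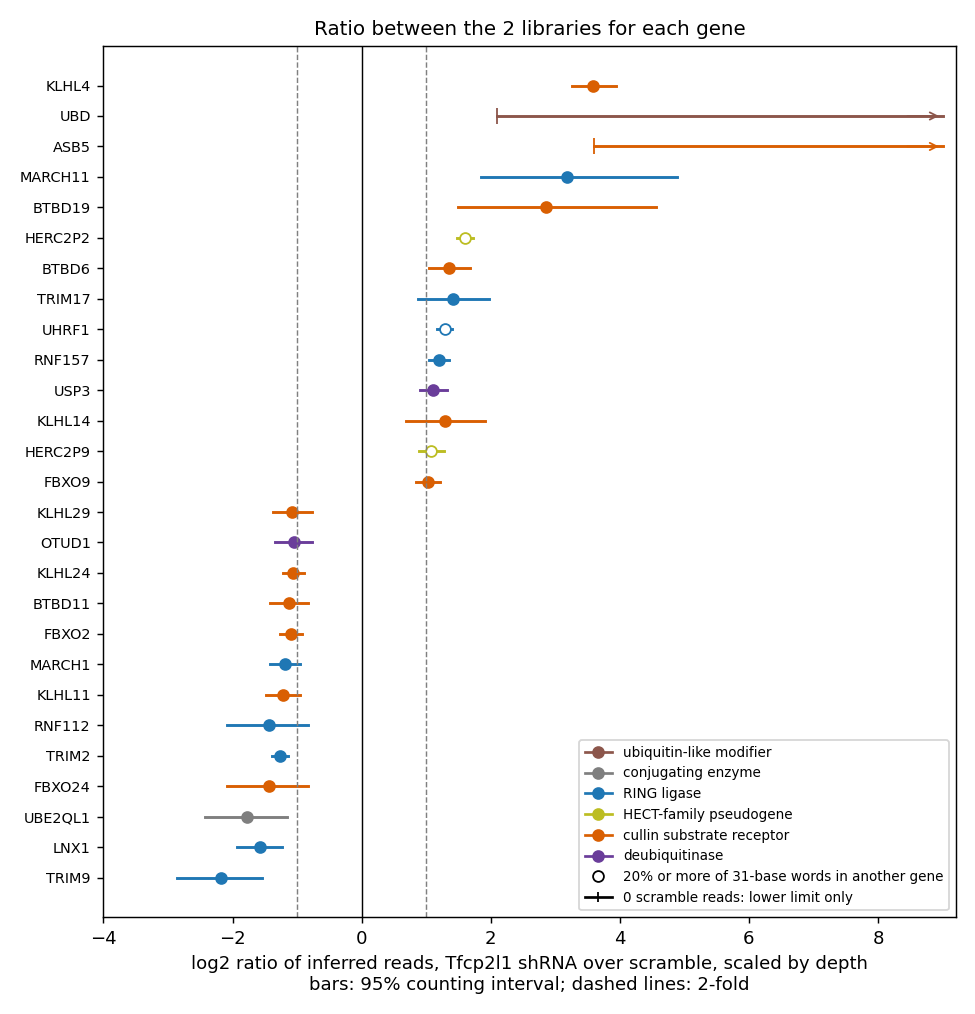
Log2 ratio of inferred reads, Tfcp2l1 shRNA over scramble, for each of the 27 genes, with 95% counting intervals, coloured by role. KLHL4 stands at a ratio of 12.0, the lower end of the intervals of UBD and ASB5 is marked because they had 0 scramble reads, and TRIM9 is lowest with a 4.53-fold difference.

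The 2 deubiquitinases had similar sizes in opposite directions. USP3 (gene ID 9960), which removes ubiquitin from histones, stood at 2.16 FPKM in the control and 4.66 FPKM after knockdown, a ratio of 2.16 (interval 1.87 to 2.50). OTUD1 (gene ID 220213), of the OTU family, was at 4.60 and 2.22 FPKM, 2.07-fold lower on 330 and 154 reads (interval 1.71 to 2.53). Neither interval lies wholly beyond 2-fold.

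At 1 FPKM or more, 7 of the higher members had an interval wholly above 2-fold, beside 29.4% of all rows. These were KLHL4, MARCH11, BTBD19, HERC2P2, BTBD6, UHRF1 and RNF157. Nearest to the authors' 2-fold limit were FBXO9, KLHL29, OTUD1 and KLHL24, with log2 ratios of 1.03, -1.04, -1.05 and -1.06 in the authors' deposited table. False discovery rates there ran from 1.48e-172 (HERC2P2) to 1.8e-05 (KLHL14). They come from a comparison of the reads of these libraries, not of the conditions.

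**Figure D3:**
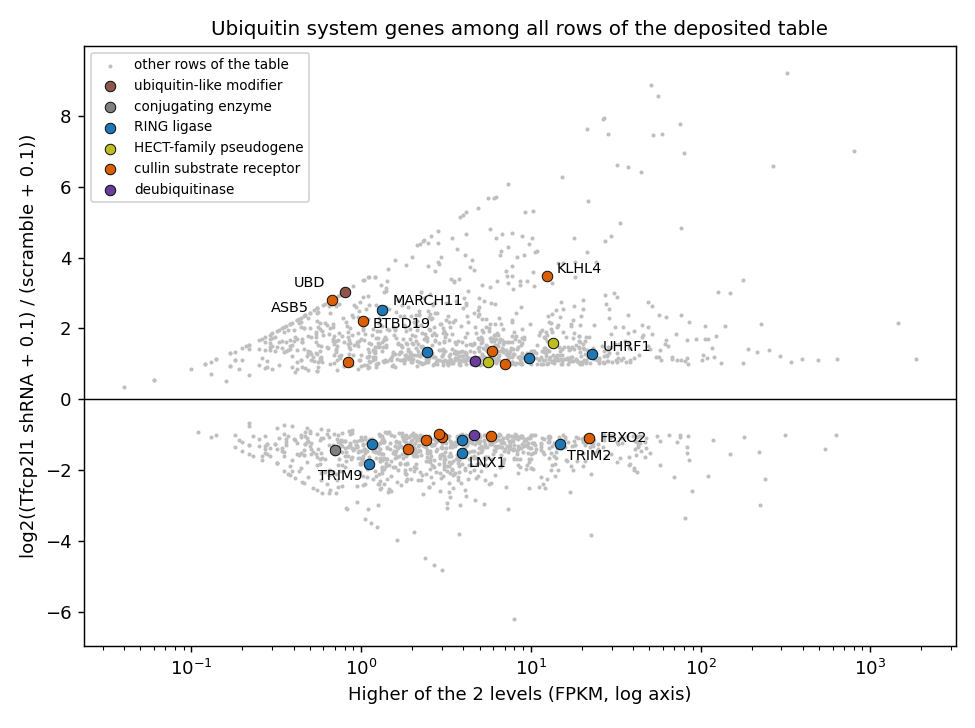
Each row of the deposited table by the higher of its 2 levels (FPKM, log axis) and its log2 ratio with a pseudocount of 0.1 FPKM, with the 27 genes coloured by role. Most members lie close to the empty band that the authors' 2-fold limit leaves, with KLHL4, UBD, ASB5, MARCH11 and BTBD19 farther above it.

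Few genes of these families had a row at all. GENCODE 29 holds 497 protein-coding genes with an Entrez ID whose symbol fits the same letters, and 25 of them (5.03%) had a row. Of all 19373 coding genes with an Entrez ID, 9.24% had a row. The 497 were matched by letters alone, so not all need be ubiquitin genes, and 4 of them are CBLN genes without a row. How many of either were expressed in these cells is not known from this table. By family the share was 5 of 37 for KLHL, 3 of 13 for BTBD, 2 of 11 for MARCH and 3 of 36 for FBXO. It was 3 of 74 for TRIM, 2 of 85 for RNF, 1 of 36 for UBE2 and 1 of 78 for USP. The WNT receptor ligases RNF43 and ZNRF3 had no row.

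**Figure D4:**
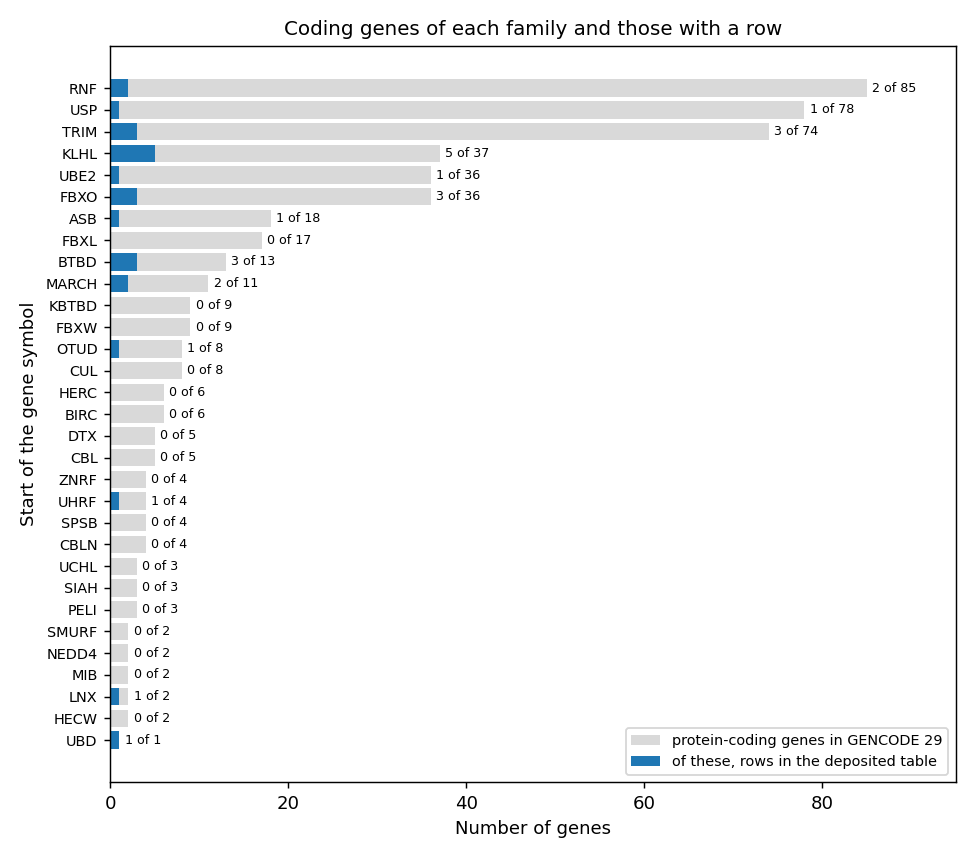
Number of protein-coding genes in GENCODE 29 for each start of the symbol (grey) and the number with a row in the deposited table (blue). KLHL has the most listed genes, 5 of 37, and RNF, USP and TRIM have 2 of 85, 1 of 78 and 3 of 74.

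The deposited annotation was set beside the choice by symbol. It often names the same families as the symbols do, so it is not an independent check. The word ubiquitin stood in the annotation of 16 of the 27, beside 2.99% of all rows. The word was there for 8 of 9 RING ligases but for 3 of 12 genes placed with the cullin receptors. Both HERC2 pseudogenes had it, while the deubiquitinase OTUD1 did not.

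Ubiquitin genes outside these symbols were taken from a list of 215 ubiquitin, proteasome, cullin and R-spondin receptor genes, of which 11 had a row, 6 higher and 5 lower. Beside this, 9.24% of GENCODE 29 coding genes with an Entrez ID had a row, and 54.1% of all rows were higher. ENC1, a BTB-kelch relative, stood at 2.38 FPKM in the control and 12.6 FPKM after knockdown, a ratio of 5.30 (interval 4.69 to 6.01). JOSD2, a deubiquitinase, was at 1.32 and 5.22 FPKM, a ratio of 3.92 (interval 2.59 to 6.13). LGR5, a receptor for R-spondins, which shield WNT receptors from ligases, was at 0.01 FPKM in the control on 1 read and at 1.03 FPKM after knockdown on 107 reads. That single read leaves the ratio of 111 with an interval from 19.4 to 4411. Its relative LGR6 was lower, at 0.95 and 0.31 FPKM.

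SOCS6, a SOCS-box receptor, was at 2.01 and 4.13 FPKM, and BRCC3, a deubiquitinase of the BRCA1 complex, at 4.01 and 8.11 FPKM. PDZRN4, a relative of LNX1, was at 0.03 and 0.25 FPKM on 2 and 19 reads. Among the lower genes, NEURL1, a ligase known to act on Notch ligands, was at 5.96 and 1.99 FPKM, 2.99-fold lower (interval 2.53 to 3.53). DDB2, a receptor of the cullin ligase that marks damaged DNA, was at 34.4 and 14.7 FPKM. MYLIP, a ligase for the LDL receptor, was at 6.77 and 2.96 FPKM, and MID1, a ligase of the TRIM group under another symbol, was at 23.6 and 10.6 FPKM. The proteasome subunits, ubiquitin precursor genes and E1 enzymes on the list had no row.

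The list is not every such gene. In the deposited annotation the word ubiquitin stood beside 44 rows outside the symbols of the rule, some of them on the list. Of these 24 were higher and 20 lower, near the 54.1% and 45.9% of all rows. A few of those off the list were singled out after their values were seen. The ligases HECTD2 (0.90 and 1.98 FPKM) and CHFR (9.49 and 19.96 FPKM) were higher. RAG1 (1.93 and 0.76 FPKM) and HERPUD1 (18.28 and 7.42 FPKM) were lower.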

How the data were processed

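Per the labels' protocols, RNA came from a Trizol extraction, and a BGISEQ-500 sequenced libraries made from 1 ug each. The submitters' processing notes name hg19 and Bowtie 0.12.2, while the sources used here do not give the quantifier, the test or the strand setting.

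The authors' deposited table holds a level per library, read as FPKM because it follows inferred reads divided by gene length and depth (RPKM cannot be told apart). It also holds the authors' log2 ratio, which equals log2 of the ratio of the levels, a p-value and a false discovery rate, with 18489 genes tested as inferred from these. Its floor is 0.01 FPKM.

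Reads were inferred as whole pairs within 8% of the FPKM ratio, 10% of the level and 0.0002 on the natural log of the p-value (Audic and Claverie test, doubled tail). At least 1 pair was found for 1721 of 1926 genes whose p-value was not printed as 0 (89.4%), and exactly 1 pair for 1631 of the 1926. A single pair was found for 23 of the 27 members, and the reads of KLHL4, HERC2P2, TRIM2 and BTBD11 were estimated from FPKM. A simulated table of the same size was made with p-values from the same test. In it exactly 1 pair was found for 95.1% of genes with a p-value above 0, and 100% of these pairs were the ones drawn. Because the simulation takes this test as given, it cannot show that the authors used it. Of 200 changed genes, 96.0% had the true ratio inside the interval. The reads were drawn from the counting model that the interval assumes, so a share near 95% was built in. Drawn reads were used there, not inferred ones, and genes with few expected reads were left out. The share therefore says nothing of errors in inferring reads or of members with 0 or few reads. Python 3.11.15, NumPy 2.4.6, SciPy 1.17.1 and pandas 2.3.3 were used, with GENCODE 29 transcripts for 31-base words. A gene with 20% or more of its words in another gene was called uncertain, which leaves 23 members below that limit.

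With 1 library per group no test of the condition was made. All 27 members were named. The members, lists and search letters were chosen with earlier results of these data known, so counts over them are a description. Of the list of 215 genes, older symbols were matched through RefSeq. The alternatives changed the pseudocount, the level minimum and which members were kept.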

Additional observations from a re-analysis of the deposited data

How the results depend on the processing

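Counts of members at least 2-fold higher and lower were 11 and 11. They were 11 and 12 without a pseudocount, 14 and 12 with no level minimum, 9 and 11 without the pseudogenes, and 8 and 11 without the members that share words. With a pseudocount of 1 FPKM they were 6 and 3, at 5 FPKM or more 7 and 3 (of 10 members), and with the interval wholly beyond 2-fold 7 and 3.

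The median log2 ratio, -0.99, has little meaning, since the table holds no values near 0 and 1 gene decides its side: it was 1.01 with no level minimum, 1.11 at 5 FPKM or more and -0.60 with a pseudocount of 1 FPKM, and the mean was 0.14. Over all rows at 1 FPKM or more the median was 1.02. The direction of a gene could not change between these settings, because the same pseudocount is added to both levels. With a pseudocount of 1 FPKM, 22 of the 27 log2 ratios left their counting interval, as a larger pseudocount shrinks ratios of low levels.

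Depth limits UBD, BTBD19, ASB5 and MARCH11, the 4 members with under 50 reads over both libraries. No paired analysis was possible because each group has 1 library, and for the same reason no library was left out.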
